A study of Mus musculus with 8 samples.

Results

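The endothelin system was followed through 4 genes of the mouse count table, chosen by name with the fold changes of earlier results of these data known (listed as EDN1, ECE1, EDNRA and EDNRB): Edn1, the precursor of endothelin-1, Ece1, the enzyme that completes its processing, and Ednra and Ednrb, which encode the A-type and B-type endothelin receptors. All 4 members were among the 13937 genes of the table and among the 13509 genes that held enough reads to be tested. The libraries were bulk RNA sequencing of primary astrocytes from the brains of C57BL/6 pups at postnatal day 1. The cells were either wild type (WT) or RGC-32 knock-out (KO), and each genotype was left untreated or was stimulated for 24 h with 10 ng/ml TGF-β. There were 2 biological replicates in each of the 4 groups, 8 libraries in all. RGC-32 is the product of Rgcc, and WT littermates of the knock-out line served as the WT mice. All groups, controls included, had grown for 2 weeks in serum, had lost their loosely attached precursors and neurons to shaking, and had been kept without serum overnight. Which part of Rgcc the knock-out removes and whether a culture pooled several pups are not given in the sources used here.

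Endothelin-1 is a short vasoconstrictor peptide. It is cut from a long precursor first by furin-type convertases, which release an inactive intermediate called big endothelin, and then by endothelin-converting enzymes such as Ece1 at the membrane. Ednra and Ednrb are G protein-coupled receptors that raise calcium through Gq, and Ednrb also takes up and clears the peptide. Endothelial cells are the best known source of endothelin-1, but reactive astrocytes make it as well, and Ednrb is the receptor most often described on astrocytes.

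The libraries held 14920561 to 18956038 counts. Counting noise alone did not cover the spread of replicates, whose chi-square per degree of freedom was 6.14 to 10.1. The targeted gene was checked first. Rgcc stood at 5.16 and 5.61 CPM (the count scaled to the normalized library total) in untreated WT, 11.9 and 23.1 CPM in treated WT, 3.89 and 1.66 CPM in untreated KO, and 4.29 and 1.72 CPM in treated KO. Every KO library was thus below every WT library, though Rgcc reads were still counted in the KO libraries. The log2 difference between genotypes was -0.97 without TGF-β (SE 0.53, adjusted p = 0.78) and -2.54 with it (SE 0.48, adjusted p = 0.133). The TGF-β treatment was checked on known targets, of which Smad7, Skil and Ccn2 rose in both genotypes, while Tgfbi was not past the threshold in either (log2 fold changes of 0.67 in WT and 0.47 in KO). Smad7, a feedback inhibitor of TGF-β signalling, rose by 1.35 on the log2 scale in WT (SE 0.06, adjusted p = 6.19e-05) and by 1.16 in KO (SE 0.06, adjusted p = 7.28e-05). Among other cell types, endothelial markers summed to 66.9 to 127 CPM over the 8 libraries and Cldn5, Tie1 and Emcn were not listed in the count table. Mural cell markers, which include the contractile genes Acta2 and Tagln, summed to 3810 to 4480 CPM in control and 8610 to 10300 CPM with TGF-β. In bulk RNA, fewer cells of a type and less RNA per cell cannot be told apart.

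Edn1 was the member with the largest difference between TGF-β and control. The gene lies on the plus strand at chr13:42301476-42307990 (GRCm38). The 300 bases around its start site in RefSeq (GRCm38.p6) held CAGAC, the letters bound by SMAD proteins, at 2 places on opposite strands, 47 and 35 bases before the start. They also held TGACTAA, a variant of the AP-1 letters, 36 bases after it. The windows are shown because Edn1 and Ednrb, the members that differed most between groups, went in opposite directions with TGF-β while both windows held CAGAC. These letters do not set Edn1 and Ednrb apart, since the Ednra window and most of the Ece1 windows held them too. Capitals mark the match to the motif on either strand, and sequences read 5′ to 3′ along the gene. Upstream and downstream are relative to the RefSeq start site. The Ednrb window, chr14:103843652-103843951, lies inside the gene as GENCODE places it (chr14:103814625-103844402).
Edn1 CAGAC pair, chr13:42301418-42301445: ccctggattgtCAGACggcgggcGTCTG
Edn1 TGACTAA, chr13:42301498-42301525: acgttgcctgtgggTGACTAAtcacaca
Ednrb upstream, chr14:103843769-103843796: caccctccccaGTCTGgaacaccccctg
Ednrb downstream, chr14:103843668-103843695: gagactgaatgCAGACcagcgggtggcg
Of 32851 such promoter windows, searched on both strands, 49.6% held CAGAC, 2.35% held TGACTAA and 7.81% held the AP-1 letters TGANTCA, which were in no member's window. A match of letters is a description and does not show that a factor binds there.

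Edn1 transcripts were scarce without TGF-β and more abundant with it in both genotypes. Untreated WT libraries held 30 and 32 Edn1 counts, treated WT libraries 86 and 82, untreated KO libraries 29 and 37, and treated KO libraries 88 and 98. On the CPM scale the libraries stood at 1.93 and 1.91 in untreated WT, 4.75 and 5.24 in treated WT, 1.85 and 2.19 in untreated KO, and 5.90 and 6.47 in treated KO. All 4 TGF-β libraries were above all 4 control libraries, and the control libraries of the 2 genotypes overlapped. The mean level was 1.92 ± 0.0174 CPM (SD, n = 2) in untreated WT and 5 ± 0.346 CPM in treated WT, a log2 fold change of 1.37 (SE 0.18, 2.59-fold). In KO the mean was 2.02 ± 0.24 CPM in control and 6.19 ± 0.408 CPM with TGF-β, a log2 fold change of 1.61 (SE 0.18, 3.05-fold). On the log2(FPKM + 1) scale, which understates changes of genes as low as this, the values for Edn1 were 0.66 in WT and 0.74 in KO.

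The response of Edn1 was 0.23 larger in KO than in WT on the log2 scale (SE 0.26), a difference smaller than its error. Between genotypes, Edn1 was 0.07 higher in KO without TGF-β (SE 0.20) and 0.31 higher with TGF-β (SE 0.16) on the log2 scale. The 2 treated KO libraries were above the 2 treated WT libraries, but the counts are small, and the 95% Poisson intervals were 68.8 to 106 for 86 counts and 79.6 to 119 for 98 counts. These intervals cover counting error only and are not scaled to depth. The libraries held 18956038 counts (treated WT, 86 for Edn1) and 15799133 counts (treated KO, 98 for Edn1), and stood at 4.75 and 6.47 CPM. Unstranded libraries also cannot tell Edn1 reads from those of Gm47118, an antisense gene that overlaps it.

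The sums of other cell types' markers were read beside Edn1. The endothelial marker sum was 99.3 to 124 CPM in untreated WT and 71.6 to 73.7 CPM in treated WT, and 101 to 127 and 66.9 to 80.0 CPM in the same groups of KO, so it was lower where Edn1 was higher. Its 5 tested markers did not move together: Cdh5 fell in both genotypes and Kdr in KO, which carried the sum, while Flt1, a VEGF receptor, rose by 1.13 in WT (adjusted p = 0.00372) and by 0.63 in KO (adjusted p = 0.039) on the log2 scale.

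The mural sum was higher where Edn1 was higher, and 4 of its 5 tested markers rose in each genotype. The sum of 8 meningeal fibroblast markers was likewise higher with TGF-β, at 4510 to 5310 CPM in untreated WT and 8580 to 9970 CPM in treated WT, and 3600 to 3800 and 6540 to 6820 CPM in the same groups of KO. Col1a1 and Col1a2, the collagen I genes, made up most of that difference, whereas Pdgfra fell in both genotypes and Dcn in WT. In each treatment the fibroblast sum was lower in KO than in WT, so it stood opposite to Ednrb in both factors. Oligodendrocyte lineage markers summed to 367 to 387 CPM without TGF-β and 458 to 619 CPM with it (Cspg4 is in this list and the mural one), and neuron markers to 280 to 338 and 355 to 397 CPM, while microglia or macrophage markers overlapped between all groups. The part of these markers in the results was not tested.

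**Figure D1:**
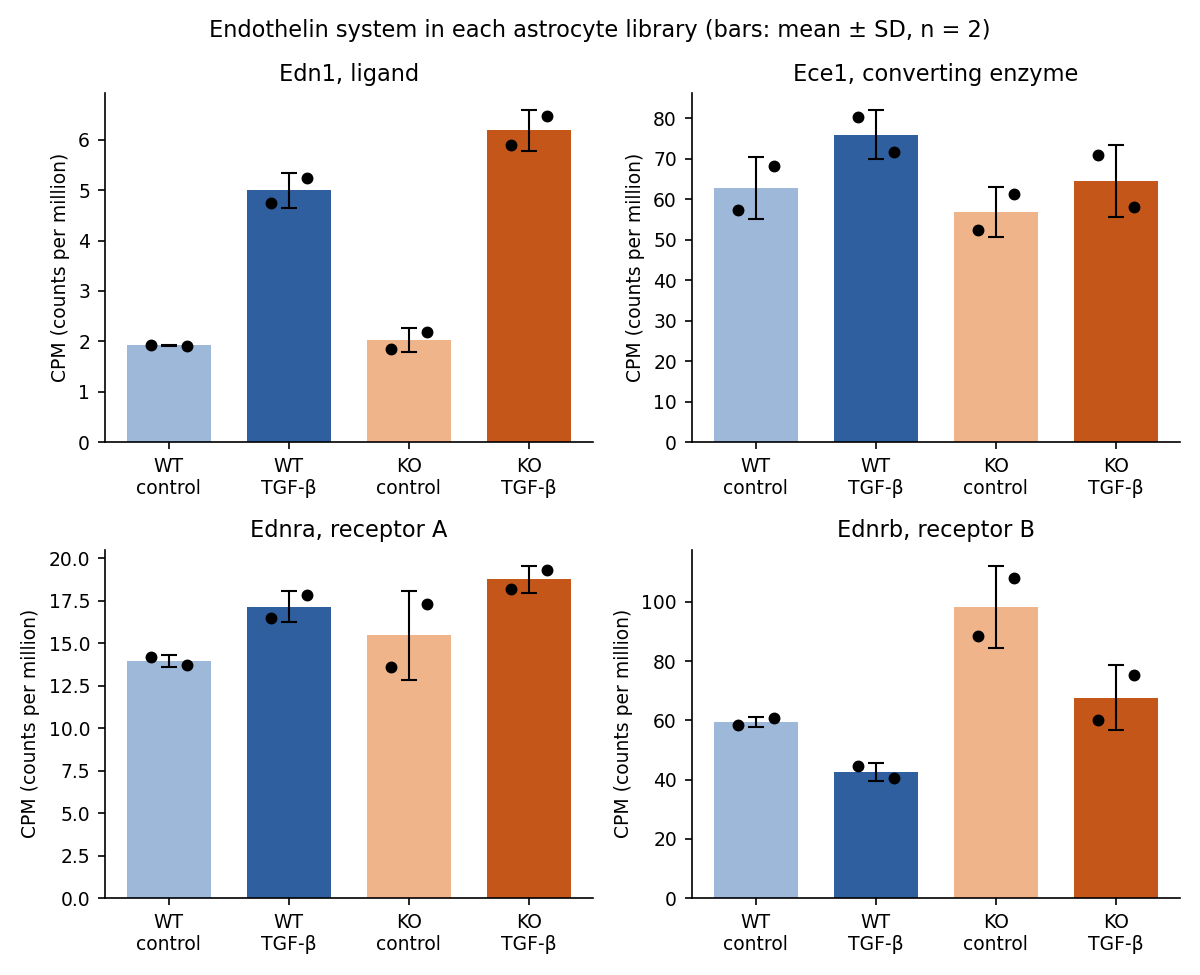
CPM of Edn1, Ece1, Ednra and Ednrb in the 8 libraries by group, where points are libraries and bars are the mean ± SD of 2 libraries. Edn1 stood at 4.75 to 6.47 CPM in the TGF-β libraries and 1.85 to 2.19 CPM in control, and Ednrb ran from 40.5 CPM in treated WT to 108 CPM in untreated KO.

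Ece1, the converting enzyme, was among the more abundant members and differed little between groups. It lies on the plus strand at chr4:137862237-137965229, where the antisense gene Gm13012 overlaps it. Ece1 counts were 889 and 1142 in untreated WT, 1450 and 1119 in treated WT, 821 and 1034 in untreated KO, and 1056 and 880 in treated KO. The CPM were 57.3 and 68.2, 80.2 and 71.6, 52.4 and 61.2, and 70.8 and 58.1 in the same order. Both treated WT libraries were above the other 6, the lower of them only just above the treated KO library at 70.8 CPM, and the other 3 groups overlapped. With TGF-β it was higher by 0.27 on the log2 scale in WT (SE 0.13) and 0.18 in KO (SE 0.13). KO was lower than WT by 0.14 without TGF-β and 0.24 with it on the log2 scale (log2 fold changes of -0.14 and -0.24, SE 0.13 each).

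Ednra, the A-type receptor, was slightly more abundant with TGF-β in both genotypes. The gene lies on the minus strand at chr8:77663031-77724464 and overlaps the opposite-strand transcript 4933431K23Rik. Its counts were 220 and 229 in untreated WT, 299 and 279 in treated WT, 213 and 292 in untreated KO, and 271 and 292 in treated KO. In CPM these were 14.2 and 13.7, 16.5 and 17.8, 13.6 and 17.3, and 18.2 and 19.3. The TGF-β libraries of each genotype were above their own controls, and the second untreated KO library reached the level of the treated WT libraries. TGF-β against untreated gave 0.30 in WT on the log2 scale (SE 0.12, 1.23-fold) and 0.28 in KO (SE 0.12, 1.21-fold), and the 2 responses differed by -0.03 (SE 0.18). Between genotypes the log2 fold change was 0.15 without TGF-β (SE 0.13) and 0.12 with it (SE 0.12).

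Ednrb, the B-type receptor, was the member that differed most between genotypes, and it was lower with TGF-β in both of them. It lies on the minus strand at chr14:103814625-103844402, with no overlapping gene in the annotation. Ednrb counts were 905 and 1019 in untreated WT, 807 and 634 in treated WT, 1386 and 1821 in untreated KO, and 896 and 1141 in treated KO. In CPM the libraries stood at 58.4 and 60.8, 44.6 and 40.5, 88.4 and 108, and 60 and 75.4. Untreated KO was the highest group and treated WT the lowest, without overlap with their neighbours, while treated KO and untreated WT overlapped. In both KO groups the first replicate was the lower of the 2.

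On average Ednrb stood at 59.6 ± 1.74 CPM in untreated WT and 98.1 ± 13.7 CPM in untreated KO (SD, n = 2 each), a log2 fold change of 0.72 (SE 0.13, 1.65-fold). With TGF-β the means were 42.6 ± 2.88 CPM in WT and 67.7 ± 10.8 CPM in KO, a log2 fold change of 0.67 (SE 0.13, 1.59-fold). The lower level with TGF-β was -0.48 on the log2 scale in WT (SE 0.13) and -0.54 in KO (SE 0.13), and the responses differed by -0.05 (SE 0.18). The difference between genotypes was thus of about the same size with and without TGF-β, and the difference with TGF-β of about the same size in each genotype. Of the genes tested, 1.77% had a larger absolute difference between genotypes than Ednrb without TGF-β and 2.11% with it. For the other members this share was 27.2% to 52.6% without TGF-β and 11.9% to 41.1% with it. The members were chosen with earlier results known, so these shares are a description. Without the second treated KO library the log2 fold change of Ednrb between genotypes with TGF-β was 0.48, and without the first it was 0.83.

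Astrocyte markers as a sum went the same way as Ednrb, but not every marker did. Of the 10, 9 were lower with TGF-β in WT and 8 in KO, and 9 were higher in KO in each treatment. Gja1 was higher with TGF-β, by 0.35 in WT and 0.33 in KO on the log2 scale (SE 0.07 each). Between genotypes Gja1 differed by -0.02 without TGF-β and -0.03 with it. Gfap was the largest part of the sum, with means of 1660 CPM in untreated WT and 2280 CPM in untreated KO. The 10 markers, which include Gfap, Aqp4 and Slc1a3, summed to 4230 and 4460 CPM in untreated WT, 3460 and 3330 CPM in treated WT, 4910 and 5630 CPM in untreated KO, and 4140 and 4450 CPM in treated KO. Taken per 1000 CPM of these markers, Ednrb was 13.8 and 13.6 CPM in untreated WT, 12.9 and 12.2 in treated WT, 18.0 and 19.1 in untreated KO, and 14.5 and 16.9 in treated KO. On this scale every KO library was above every WT library, and the groups with and without TGF-β still did not overlap within a genotype. In proportion, the Ednrb differences between treatments and between genotypes were all smaller than in CPM. The nearest untreated and treated libraries stood at 13.6 and 12.9 in WT and at 18.0 and 16.9 in KO. The part of the astrocyte marker level in the Ednrb differences was not tested.

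**Figure D2:**
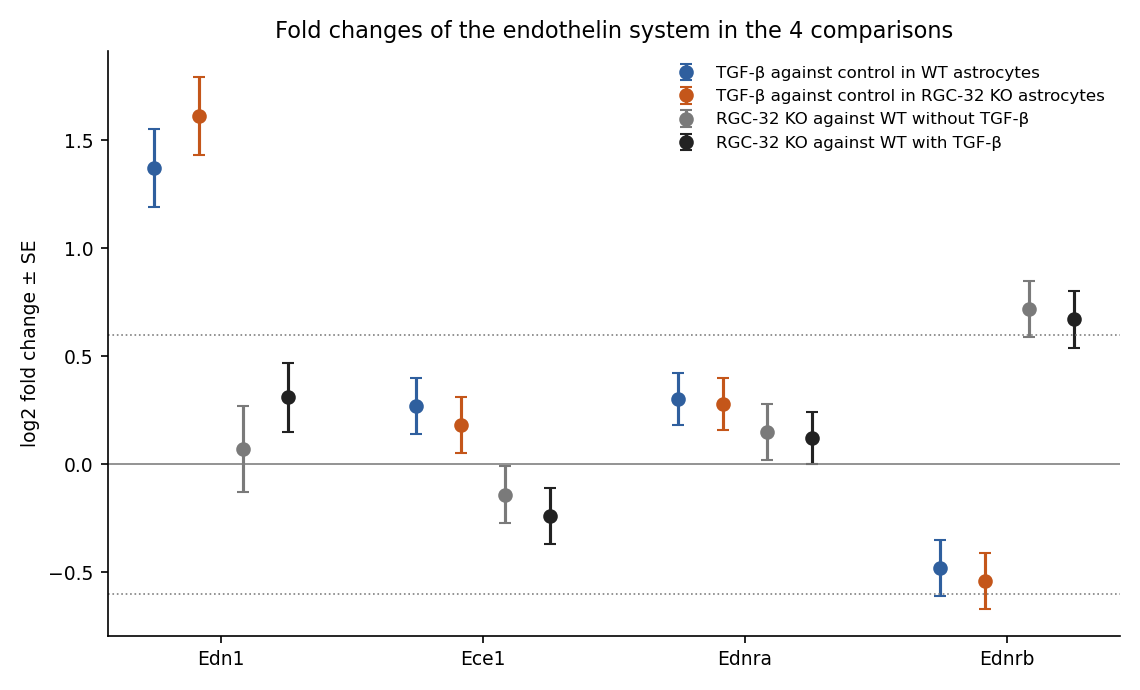
Log2 fold change ± SE of each member for TGF-β against control in WT and KO and for KO against WT without and with TGF-β, with dotted lines at the fold threshold of 0.6. Edn1 lies above the upper line for both TGF-β comparisons, and Ednrb lies below 0 for both and above the upper line for both genotype comparisons.

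A gene was past the threshold when its adjusted p was under 0.05 and its log2 fold change was 0.6 or more in either direction. With TGF-β, 1 of the 4 members (Edn1) was past it in the upward direction in WT, where 7.72% of all genes tested were, and 1 (Edn1 again) in KO, where 6.61% were. Between genotypes edgeR put 0 of 4 members past it without TGF-β, against 0.037% of all genes (5 genes), and 0 of 4 with TGF-β, against 0.0444% (6 genes). At an unadjusted p under 0.05, edgeR counted 924 and 1576 genes in these comparisons and DESeq2 called 13 and 33 genes at the full threshold. Ednrb was among those DESeq2 called in both, and it was called by no other alternative. In the interaction of genotype and TGF-β, 0 of 13509 genes were past the threshold in edgeR or under any alternative, with 381 at an unadjusted p under 0.05. The members were chosen with earlier results of these data known, so their counts are given as a description and no p-value is given for a member.

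The groups of 2 libraries did not overlap for 4 of 4 members with TGF-β in WT, against 69.1% of all genes, and for 3 of 4 in KO, against 67.3%. Between genotypes they did not overlap for 1 of 4 members without TGF-β (Ednrb, against 32.8% of all genes) and for 4 of 4 with TGF-β (against 46.3%). With 2 libraries a group, such gaps were common among all genes.

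Levels were compared between members only per transcript length, in FPKM (fragment counts divided by transcript length and by depth). Over the 8 libraries Ednrb averaged 15.6 FPKM (8.47 to 25.9), Ece1 10.1 FPKM (8.43 to 11.9), Ednra 3.88 FPKM (3.25 to 4.44) and Edn1 1.57 FPKM (0.841 to 2.42). The ranges of Ednra and Edn1 did not overlap with each other or with those of Ednrb and Ece1, while the ranges of Ednrb and Ece1 overlapped. The ligand gene was therefore the least abundant member in every group, and the B-type receptor exceeded the A-type receptor in every library.

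The ratio of Ednrb to Ednra in FPKM was 3.80 and 4.13 in untreated WT, 2.68 and 2.11 in treated WT, 6.69 and 6.11 in untreated KO, and 3.22 and 3.80 in treated KO. The means were 3.97 ± 0.233, 2.40 ± 0.401, 6.40 ± 0.405 and 3.51 ± 0.404 (SD, n = 2 each). The ratio was lower with TGF-β in each genotype and higher in KO than in WT in each treatment, without overlap. Treated KO and untreated WT touched at 3.80. The same order of the means was found with CPM per kilobase of the longest transcript, with means of 3.78, 2.19, 5.62 and 3.18. The enzyme to ligand ratio, Ece1 to Edn1 in FPKM, was 11.4 and 11.3 in untreated WT, 5.93 and 5.33 in treated WT, 8.78 and 9.01 in untreated KO, and 4.50 and 3.81 in treated KO.

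**Figure D3:**
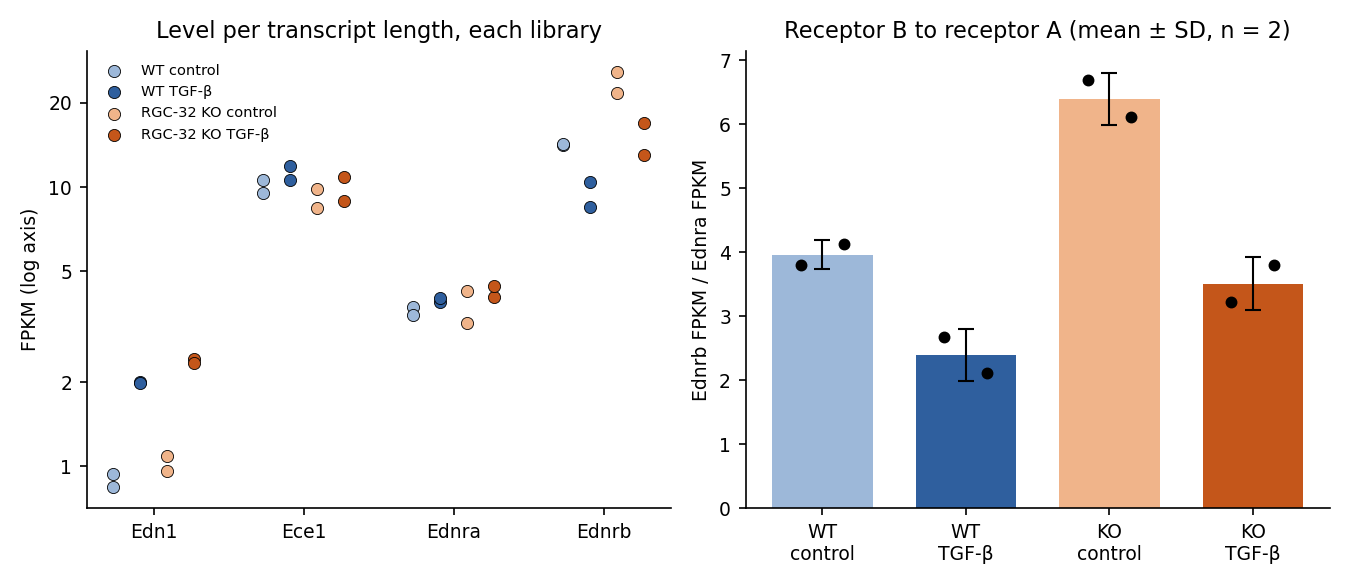
Left, FPKM of each member in each library on a log axis. Right, the ratio of Ednrb to Ednra in FPKM, with points for libraries and bars for the mean ± SD of 2 libraries, which is highest in untreated KO (6.40) and lowest in treated WT (2.40).

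The other ligands and the enzymes that make or degrade endothelins were a list of 8 genes, of which 5 were tested. With TGF-β 1 of the 5 rose and 0 fell in each genotype, and between genotypes 0 of 5 were called. Its median in log2 was 0.02 for WT and 0.06 for KO, against -0.005 and 0.003 over all genes tested. Furin, the convertase that makes big endothelin, rose from 120 ± 0.738 to 223 ± 1.78 CPM in WT (log2 fold change 0.89, SE 0.06, adjusted p = 0.000122) and from 120 ± 3.09 to 220 ± 11.9 CPM in KO (0.87, SE 0.06, adjusted p = 0.000146). Pcsk7, another convertase, stood between 27.5 and 30.1 CPM as group means, and Mme, the endopeptidase neprilysin that degrades endothelin, between 87.7 and 96.5 CPM. Ctsa, the lysosomal cathepsin A that also degrades it, gave -0.40 in log2 with TGF-β in WT (SE 0.07, adjusted p = 0.0045) and -0.33 with TGF-β in KO (SE 0.07, adjusted p = 0.0118), both under the fold threshold.

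Edn3, the gene of endothelin-3, held 9 to 33 counts per library. With TGF-β it stood at -0.71 for WT in log2 (SE 0.46, adjusted p = 0.271) and -0.43 for KO (SE 0.50, adjusted p = 0.557), within the spread of libraries that hold so few reads. Edn2 was not listed in either table. Ece2, the second converting enzyme, was listed only in FPKM, at 6.45 and 7.13 in untreated WT, 4.81 and 4.91 in treated WT, 7.26 and 7.48 in untreated KO, and 4.95 and 4.86 in treated KO. The Ece2 libraries with TGF-β were all below those without it. On the log2(FPKM + 1) scale limma gave Ece2 -0.41 with TGF-β in WT (SE 0.06, adjusted p = 0.00285) and -0.50 with TGF-β in KO (SE 0.06, adjusted p = 0.0016), also under the fold threshold. The gene overlaps Gm49333 on the same strand, so its reads may be divided between the 2. Ecel1 reached at most 0.182 FPKM.

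Downstream of the receptors, the list of 27 G proteins, phospholipases, calcium channels, kinases, arrestins and regulators showed few changes, with 26 tested. In WT 2 of 26 (7.69%) rose and 0 fell with TGF-β, against 13.4% of all genes called in either direction, and in KO 0 of 26 were called, against 11.5%. The count was 1 in WT without the first library of either WT group, and 1 in KO without either treated KO library. The WT count also depended on the method. It was 1 under upper quartile scaling, under the replicate block and with edgeR on 4 libraries, and 0 with FPKM at either pseudocount. The median log2 fold change of the list was 0.08 in WT and -0.01 in KO. Prkca, a protein kinase C, rose from 86.5 ± 0.617 to 141 ± 11 CPM in WT (log2 fold change 0.71, SE 0.07, adjusted p = 0.000367), and in KO it stood at 0.56 (SE 0.07, adjusted p = 0.00105), under the fold threshold. The responses of Prkca in the genotypes differed by -0.14 (SE 0.09, adjusted p = 1), its value in WT was under the fold threshold with FPKM (0.51 and 0.56 at pseudocount 1 and 0.1), and its value in KO reached it without the first treated KO library (0.60). Itpr3, an inositol trisphosphate receptor that releases calcium from stores, rose in WT (0.67, SE 0.21, adjusted p = 0.0452) and stood at 0.18 in KO (SE 0.22, adjusted p = 0.581). The Itpr3 call was lost in 7 of 16 alternatives, with adjusted p from 0.00195 to 0.242, among them leaving out the first library of either WT group. Its responses in the genotypes differed by -0.49 (SE 0.31, adjusted p = 1). Gnaq, the G protein that couples both receptors to calcium, had log2 fold changes of 0.46 and 0.36, under the fold threshold.

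A list of 18 genes described as responding to endothelin in astrocytes held more calls. In WT 6 rose and 3 fell with TGF-β (50% against 13.4% of all genes) and in KO 7 rose and 3 fell (55.6% against 11.5%), with median log2 fold changes of -0.15 and -0.02. Between genotypes 0 of 18 were called in either treatment. These genes have many other inducers. Bdnf, a neurotrophin, rose by 1.29 in WT (SE 0.12, adjusted p = 0.000402) and by 1.20 in KO (SE 0.13, adjusted p = 0.000679) on the log2 scale. Vegfa, the vascular growth factor, rose from 74.7 ± 6.35 to 166 ± 6.07 CPM in WT (1.15, SE 0.08, adjusted p = 0.000124) and by 1.08 in KO (SE 0.08, adjusted p = 0.000189). Ptgs2, the prostaglandin synthase COX-2, rose by 1.15 (SE 0.23, adjusted p = 0.00738) and 1.43 (SE 0.23, adjusted p = 0.0039).

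Jag1, a Notch ligand, and Gdnf, a neurotrophic factor, also rose in both genotypes, and Mmp9, a matrix protease, was past the threshold in KO alone (1.03, adjusted p = 0.0173, against 0.65, adjusted p = 0.0681 in WT), with a difference of 0.37 between the responses (SE 0.34, adjusted p = 1). The Mmp9 call in KO was lost without the first untreated or the first treated KO library (adjusted p up to 0.0954), and in WT Mmp9 was called by DESeq2 and in a fit that paired unlike replicate numbers, chosen after seeing the data. The genes that fell were the same in both genotypes. Gjb6, the gap junction protein connexin 30, fell from 2.62 ± 0.602 to 0.404 ± 0.21 CPM in WT (log2 fold change -2.64, SE 0.36, adjusted p = 0.00161) and to 0.533 ± 0.0994 CPM in KO (-2.36, SE 0.35, adjusted p = 0.00281). Ccnd1, a cell cycle cyclin, and Slc1a2, a glutamate transporter, had log2 fold changes of -0.81 and -0.68 in WT and -0.74 and -0.79 in KO. Slc1a2 and Gjb6 are also among the astrocyte markers above.

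**Figure D4:**
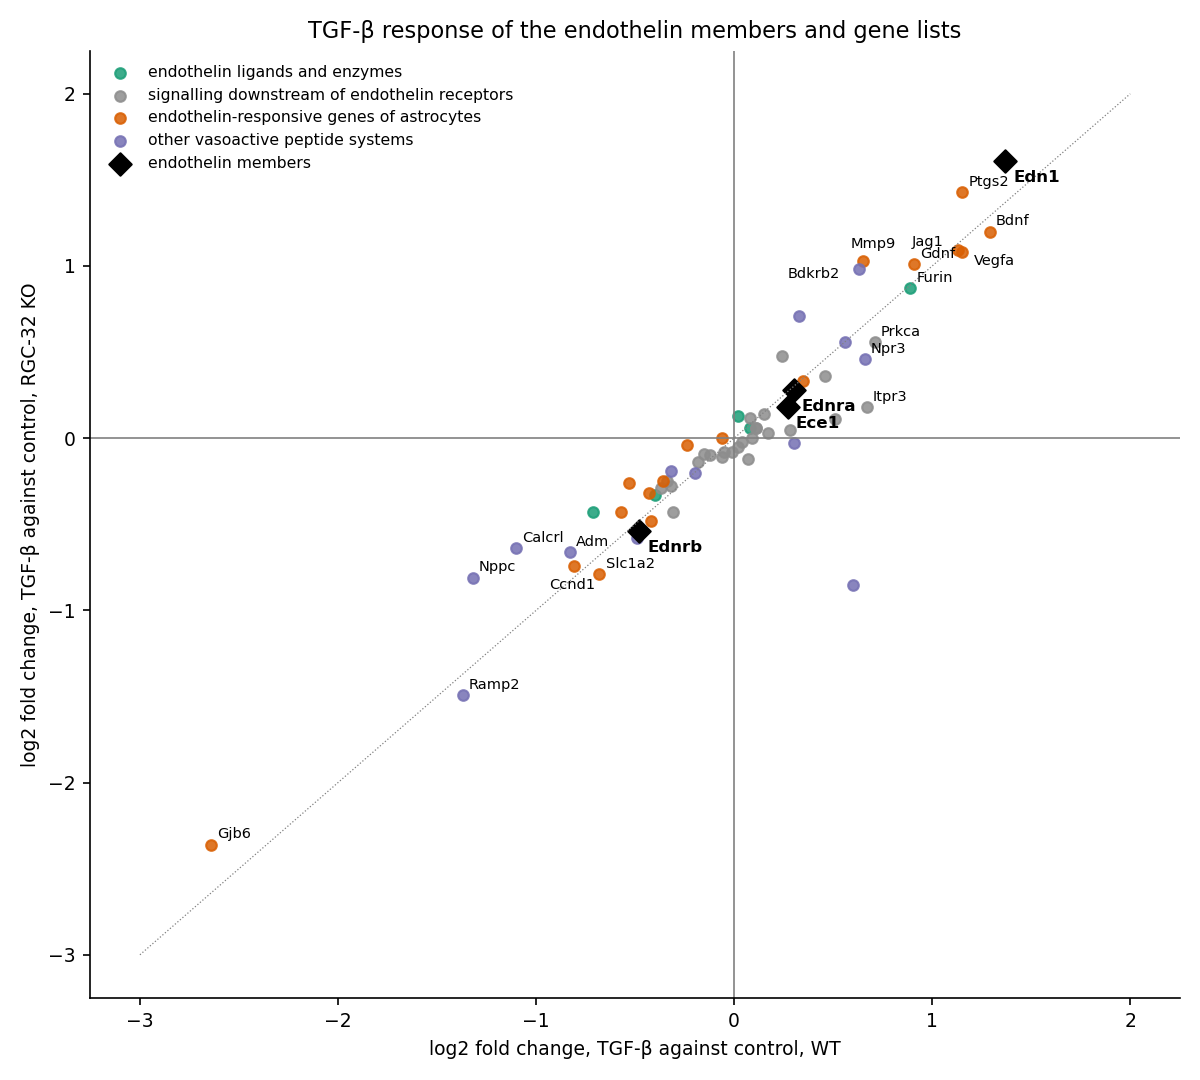
Log2 fold change with TGF-β in WT (x axis) against KO (y axis) for the 4 members (diamonds) and the tested genes of the 4 lists other than 1 that is not reported (circles), with names on genes past the threshold in either genotype and a dotted line of equality. Edn1 lies at 1.37 and 1.61 and Ednrb at -0.48 and -0.54.

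Genes whose pattern was most like each member were taken by Pearson's correlation of log2 CPM over the 8 libraries, a description in which the points share 4 groups and the same libraries. For Edn1 they were Plekhg5 (0.997), an exchange factor for small GTPases, Wipi1 (0.997), an autophagy protein, and Mgat1 (0.994), an enzyme of N-glycan synthesis. The pattern of Edn1 was a common one, with 529 genes over 0.95. For Ednrb they were the adhesion molecule Cadm3 (0.993), the adaptor Apba2 (0.991) and the organic cation transporter Slc22a4 (0.988), with 28 genes over 0.95. Like Ednrb, Apba2 was lower with TGF-β, by log2 fold changes of -0.53 and -0.61, and higher in KO, by 0.95 and 0.87, and none of these genes was called between genotypes. For Ednra they were Fzd8 (0.968), a Wnt receptor, Sema5b (0.967), a semaphorin, and Fam131b (0.967), and for Ece1 they were C1qtnf6 (0.979), Pappa (0.979), a protease of IGF-binding proteins, and Atp11b (0.975), a lipid flippase.

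Ednrb and the targeted gene Rgcc share chromosome 14, with 24.5 Mb between them. Of 478 genes tested on this chromosome, 1 was called between genotypes without TGF-β and 1 with it (0.209% each), against 0.0309% of the 12936 genes on other chromosomes in each comparison. In both cases it was Stc1, the hormone stanniocalcin-1, which rose by 1.99 in KO without TGF-β (SE 0.18, adjusted p = 0.0164) and by 1.99 with it (SE 0.21, adjusted p = 0.0451), and which lies 10.26 Mb from Rgcc on the other side from Ednrb. The Stc1 call was fragile: it was lost when any 1 library of the comparison was left out, under the replicate block (adjusted p = 0.0849 without TGF-β and 0.0818 with it), with edgeR on the 4 libraries of the comparison (0.172 and 0.0879) and, with TGF-β, in limma-voom (0.0812). DESeq2 gave it no adjusted p. The size of the Stc1 difference moved little in fits on counts, from 1.83 to 2.14 without TGF-β and 1.94 to 2.06 with it. With FPKM at pseudocount 1 it was 1.06 and 0.76. In its own DESeq2 analysis the paper named Stc1 among the most significant genes higher in KO, with and without TGF-β. It also reported higher Stc1 in KO by real-time PCR in both treatments. The adjusted p over the alternatives ran from 0.00276 to 0.207 without TGF-β and from 0.0144 to 0.494 with it. Over the whole chromosome, 49 genes (10.3%) without TGF-β and 76 (15.9%) with it were at an unadjusted p under 0.05 in edgeR. In each comparison 18 of the 478 had a larger absolute difference than Ednrb, against 217 and 260 of the 12936 elsewhere. Of the 21 genes tested within 5 Mb of Ednrb, 0 were called, with 3 (14.3%) and 5 (23.8%) at an unadjusted p under 0.05. On other chromosomes the shares were 6.73% and 11.5%. None of the 21 had an absolute difference between genotypes as large as that of Ednrb. Few genes did among all those tested (1.77% without TGF-β and 2.11% with it). Differences this large, and calls, were so rare that 21 genes were too few to tell whether the region differed. The medians of the 21 were 0.01 and 0.00. Spry2, an inhibitor of receptor tyrosine kinase signalling in this window, differed by 0.27 in log2 in both treatments (SE 0.06, adjusted p = 0.456 without and 0.202 with TGF-β) and was named after its values were seen.

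**Figure D5:**
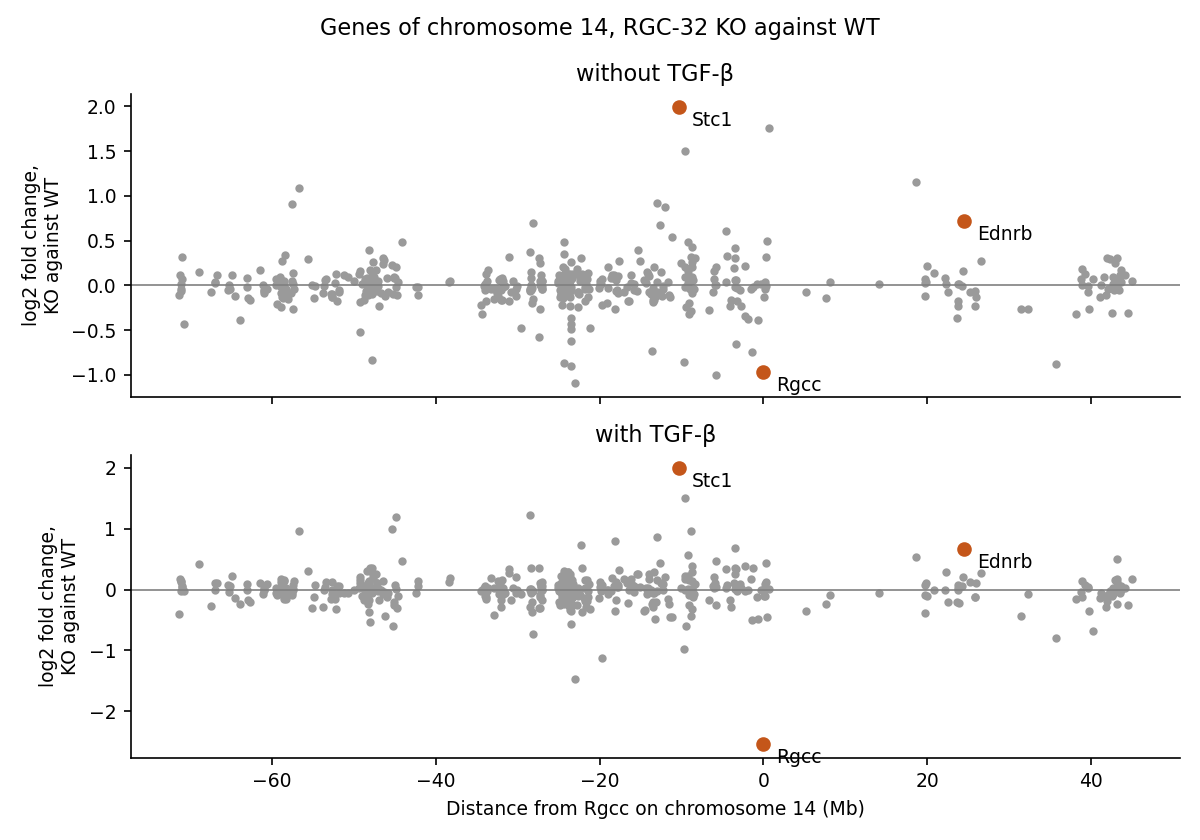
Log2 fold change of KO against WT for the genes tested on chromosome 14, without TGF-β (top) and with it (bottom), by distance from Rgcc in Mb. Ednrb (0.72 and 0.67), Stc1 (1.99 in both) and Rgcc are marked, and the genes nearest to Ednrb lie closer to 0 than it does, as do most genes of the chromosome.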

How the data were processed

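Groups and replicate numbers came from the labels. The authors aligned unstranded reads with STAR in the VIPER pipeline. Whole-number counts per gene symbol, not normalized, and FPKM values scaled to transcript length and depth and ascribed to Cufflinks were deposited by the authors. The labels' processing notes name build mm10, and the program that counted reads is not given in the sources used here. Deposited log2 fold changes, p-values and adjusted p-values of the authors' own DESeq2 comparisons were not used. Names were matched to GENCODE M21 (GRCm38) for 13830 of 13936 distinct symbols, and promoters came from RefSeq.

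Counts were filtered by filterByExpr, scaled by TMM and fitted with edgeR 4.0.16 (R 4.3.3) as 1 quasi-likelihood model of 4 groups over 8 libraries. P-values are two-sided and adjusted over all 13509 genes by the Benjamini-Hochberg method. They test a difference between groups against the spread between these cultures, which was estimated over the 4 groups of 2 libraries together. CPM used TMM totals, and log2 CPM for likeness a prior count of 2. Fold changes are KO minus WT or TGF-β minus control, and interaction is the KO response minus the WT response. Alternatives were DESeq2 1.42.0, limma 3.58.1 (voom, and log2 FPKM with pseudocount 1 or 0.1 at a mean of at least 0.1 FPKM), other scalings and filters, replicate blocks, fits on 4 libraries and leaving out each library. The edgeR fit was tested on simulated data.

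Members, lists and tests were chosen with earlier results of these data known. Named genes were every member, Rgcc, the 3 genes most like each member, all 8 ligand and enzyme genes, up to 4 called genes a list by size of change in WT, list genes called between genotypes, and genes of the chromosome of Ednrb called between genotypes. Other names were chosen after their values were seen. List counts include genes that are not reported by name here.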

Additional observations from a re-analysis of the deposited data

How the results depend on the processing

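Edn1 was called with TGF-β in both genotypes under every alternative run, and none of the member fold changes called in the report changed sign. With FPKM at pseudocount 1 and 0.1, the log2 fold change of Edn1 with TGF-β was 0.66 and 1.08 in WT and 0.74 and 1.14 in KO, that of Ednra in WT 0.10 and 0.13, and the Edn1 interaction 0.08 and 0.06. Edn1 between genotypes was 0.18 without TGF-β (pseudocount 0.1) and 0.18 with it (pseudocount 1). Against edgeR, FPKM values had a median shift of -0.12 to -0.14 with TGF-β, and Ednra and Ece1 kept their sign there. With 1 library left out, Edn1 with TGF-β ran from 1.29 to 1.45 in WT and 1.48 to 1.74 in KO, Ednra from 0.23 to 0.36 and 0.10 to 0.46, and Ednrb from -0.55 to -0.43 and -0.73 to -0.38. Between genotypes Edn1 ran from -0.05 to 0.19 without TGF-β and 0.23 to 0.39 with it, Ednra from -0.03 to 0.31 and 0.06 to 0.19, Ednrb from 0.57 to 0.86 and 0.48 to 0.83. The interaction ran from 0.12 to 0.36 for Edn1, -0.19 to 0.16 for Ednra, -0.24 to 0.11 for Ednrb and -0.24 to 0.03 for Ece1. Ece1 ran from 0.16 to 0.39 with TGF-β in WT and 0.03 to 0.30 in KO, and from -0.26 to -0.01 between genotypes without TGF-β and -0.37 to -0.11 with it. Ednrb with TGF-β in KO was called, downward, under upper quartile scaling, both FPKM settings and without KO control replicate 1 or KO TGF-β replicate 2, and in both genotypes with no fold threshold.

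Genes called with TGF-β in WT (1806) were 1105 with FPKM at pseudocount 1, 4450 with no fold threshold, and 1200 to 1782 with 1 library left out, the lowest without treated WT replicate 2. In KO (1559) they were 3835 with no fold threshold and 1053 to 1457 with 1 library left out. The share that rose was 57.8% and 57.3%, and 44.8% and 45.5% under upper quartile scaling, 47% and 44.4% with FPKM at pseudocount 1 and 37.6% and 36% at 0.1. Between genotypes, 5 genes without TGF-β were 13 in DESeq2, 2 under a replicate block, 2 with edgeR on 4 libraries and 0 to 2 with 1 library left out. The 6 genes with TGF-β were 33 in DESeq2, 3 in limma-voom, 3 under a replicate block and 0 to 1 with 1 library left out. Their share that rose was 80% and 50%, and 46.2% and 33.3% in DESeq2, with 75% in RLE scaling with TGF-β. Under the replicate block 1616 and 1369 genes were called with TGF-β. The replicate numbers were not shown to pair the cultures: differences between replicates correlated at -0.34 between control and TGF-β in WT and -0.35 in KO, and at 0.49 and 0.25 between genotypes. A crossed pairing, chosen after seeing the data, called 2105 and 1852. Genes near 0 changed sign: with TGF-β in WT, Pcsk7 was -0.06, -0.11 and -0.13 and Mme -0.00, -0.03 and -0.03 under upper quartile scaling and FPKM at pseudocount 1 and 0.1, and without treated WT replicate 1 they were -0.03 and -0.04. In KO Mme was -0.02 under all 3, -0.14 without control replicate 1 and 0.28 without control replicate 2, and Pcsk7 was -0.06 and -0.07 with FPKM. Edn3 in WT was 0.02 without WT control replicate 2 and -1.19 without replicate 1. The cause of these changes was not tested. By Spearman's correlation, 1 of the 3 genes most like Edn1, Ednra and Ece1, and 2 of 3 for Ednrb, reached the third highest value, ties included. Such ties held several genes: 14 were at or above the value of Wipi1 for Edn1 and 5 that of Sema5b for Ednra. For Ece1, 8 were at or above that of Atp11b, and for Ednrb 5 that of Cadm3 and Slc22a4. Depth limits Edn1 and Edn3, with at most 98 and 33 counts a library, and 2 libraries a group limit every comparison.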

Other observations

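Other vasoactive peptide systems were measured in the same libraries, as a list of 15 genes of which 13 were tested. With TGF-β 1 rose and 4 fell in WT (38.5%, against 13.4% of all genes), and 1 rose and 3 fell in KO (30.8%, against 11.5%). These counts depended on single libraries: the 5 calls in WT were 3 without control replicate 2 or treated replicate 1 and 2 without treated replicate 2, and the 4 in KO were 1 without control replicate 1 or treated replicate 1 and 0 without treated replicate 2. The median log2 fold change was -0.20 in both genotypes. Adm, the vasodilator peptide adrenomedullin, fell from 24.1 ± 0.836 to 13.6 ± 0.116 CPM in WT (SD, n = 2, log2 fold change -0.83, SE 0.14, adjusted p = 0.00408) and from 23.2 ± 3.32 to 14.6 ± 2.69 CPM in KO (-0.66, SE 0.14, adjusted p = 0.0118). Both parts of its receptor were lower as well: Calcrl fell by 1.10 in log2 in WT (SE 0.15, adjusted p = 0.00144) and by 0.64 in KO (SE 0.15, adjusted p = 0.0172), and Ramp2 fell by 1.37 (SE 0.44, adjusted p = 0.0455) and fell by 1.49 (SE 0.42, adjusted p = 0.0341). In KO the call of Adm was lost in 2 of 16 alternatives (adjusted p up to 0.065) and that of Calcrl in 4 of 16 (up to 0.082), leaving out 1 library among them. Ramp2 held 17 to 97 counts per library, and its call was lost in 6 of 16 alternatives in WT (adjusted p 0.0137 to 0.216) and 5 of 16 in KO (0.0117 to 0.159).

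Nppc, the C-type natriuretic peptide, fell in WT by 1.32 in log2 (SE 0.37, adjusted p = 0.0289, lost when any 1 WT library was left out) and stood at -0.81 in KO (SE 0.36, adjusted p = 0.133). Npr3, the receptor that clears natriuretic peptides, rose in WT (0.66, SE 0.16, adjusted p = 0.0155) and stood at 0.46 in KO (adjusted p = 0.0617). Bdkrb2, a bradykinin receptor, rose in KO (0.98, SE 0.28, adjusted p = 0.0322) and stood at 0.63 in WT (adjusted p = 0.096). The call of Npr3 in WT was lost in 6 of 16 alternatives (adjusted p up to 0.0827) and that of Bdkrb2 in KO in 7 of 16 (up to 0.119), among them leaving out any 1 KO library for Bdkrb2. The adjusted p for a difference between the responses was 1 for each of these genes, and 0 of 13 were called between genotypes in either treatment.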
